A study of Homo sapiens with 4 samples.

Results

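The mRNA levels of 10 genes of the integrated stress response were examined, ATF4, ATF3, DDIT3, CHAC1, NUPR1, TRIB3, ASNS, SESN2, CEBPB and PPP1R15A, out of 19225 entries in the count table. All 10 were found by their symbols, and all 10 passed a minimum mean of 1 CPM, counts scaled to the library total, in each cell line. They were chosen by their role in this response and with their fold changes of sh-WDR4-2 over sh-NC in these libraries already known, so every fold change of the 10 genes is given as a description and without a test. RNA-seq was performed in 2 human liver cancer cell lines, HCC-LM3, a hepatocellular carcinoma (HCC) line with high metastatic potential, and Huh-7, a hepatoma line. By the study's methods each line was transduced with sh-WDR4-2, a short hairpin RNA against WDR4, or with sh-NC, a nonspecific control hairpin. By the same methods, transduced cells carried a lentiviral hairpin construct and were selected with puromycin. The treatment label of the Huh-7 sh-WDR4-2 library, however, reads as transfection with siWDR4, so this is not settled for every library. The labels give 48 h for each library. There were 4 libraries, 1 per cell line and hairpin, with 29807047 to 40572251 counts.

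The integrated stress response is a signalling pathway that adjusts protein synthesis to stress. In this pathway 1 of 4 kinases phosphorylates the translation initiation factor eIF2. General translation then slows, while translation of ATF4 mRNA is favoured because of short upstream reading frames in its leader. ATF4 protein binds DNA as a basic leucine zipper (bZIP) dimer, often with a C/EBP partner, and activates genes for amino acid supply, redox control and, under long stress, cell death. ATF4 is therefore regulated mainly at translation, and an mRNA count does not measure ATF4 protein. In the liver the pathway is known for its response to amino acid shortage and to stress of the endoplasmic reticulum (ER).

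WDR4 is the partner of METTL1 in the tRNA m7G methyltransferase. It had a log2 fold change of −0.22 in HCC-LM3 cells for the library labelled sh-WDR4-2 (95% counting interval −0.34 to −0.11). In the Huh-7 library it had −0.02 (−0.15 to 0.11), so a lower WDR4 mRNA was not detectable in Huh-7 cells. Of all genes, 19.2% in HCC-LM3 cells and 83.7% in Huh-7 cells lay at least as far from 0. In what follows sh-WDR4-2 therefore stands for the library labelled so, and not for a loss of WDR4 measured in these libraries. The study itself reports stable WDR4 knockdown with a lentiviral hairpin in both cell lines. The treatment label of the HCC-LM3 sh-WDR4-2 library reads as transduction with WDR4 and that of the Huh-7 one as transfection with siWDR4. The protocol of the Huh-7 libraries speaks of retinas, and the lane named in the description of HCC-LM3 sh-WDR4-2 differs from that of the other libraries. The hepatocyte genes ALB and TTR had 0 counts in all 4 libraries, where 0 counts allow up to 0.0739 to 0.101 CPM, the limit of 3 counts, by library, and of 8 hepatocyte markers only APOA1, APOB and, in Huh-7 cells, HNF4A exceeded 1 CPM. APOA1 and APOB are among 231 symbols of the table that break the order its other entries follow, so their identity is in doubt. None of the 10 stress genes is among these 231 symbols. Neither are ALB and TTR, so this check alone does not settle the identity of a symbol. The 5 retina markers summed to 0.313 CPM in HCC-LM3 sh-WDR4-2, 1.47 in HCC-LM3 sh-NC, 0.498 in Huh-7 sh-WDR4-2 and 0.819 in Huh-7 sh-NC, NRL having the largest part in each, and CRX was at 0 in all of them.

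ATF4 directs its targets through a composite C/EBP-ATF element with the core TGATGNAA. The following promoter windows are shown because they hold this core, or the cAMP response element (CRE) TGACGTCA in PPP1R15A, in genes described here. Sequences are from RefSeq (GRCh38.p14), run 5′ to 3′ on the strand of the gene, and carry the match in capitals.
CHAC1, chr15:40953251-40953280: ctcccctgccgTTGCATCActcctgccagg
ATF3, chr1:212565205-212565234: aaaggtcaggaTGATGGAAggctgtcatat
ASNS, chr7:97872458-97872487: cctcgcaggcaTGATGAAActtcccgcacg
PPP1R15A, chr19:48872352-48872381: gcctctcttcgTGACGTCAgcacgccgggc
The match began at position −209 from the RefSeq gene start in CHAC1, where it read TGATGNAA on the opposite strand, at −191 in ATF3, −68 in ASNS and −58 in PPP1R15A. Windows of 300 bases around the gene start were available for 9 of the 10 genes and were searched on both strands. The core TGATGNAA was present in 3 of these 9 genes and in 3.62% of all 35116 windows, and TGACGTCA was present in 1.85% of them. The RefSeq starts of CHAC1, ASNS, ATF3 and PPP1R15A lie inside the GENCODE spans given for these genes. The stretches shown for CHAC1 and ASNS also fall within those spans, whereas the stretches shown for ATF3 and PPP1R15A lie before them. A match of letters is not a measured binding site.

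ATF4 (chromosome 22, 39519695 to 39522685 of GRCh38 in GENCODE release 29) was the most abundant of the 10 mRNAs per length. The deposited FPKM of ATF4 were 262 in HCC-LM3 sh-WDR4-2 and 275 in HCC-LM3 sh-NC, and 188 and 202 in the corresponding Huh-7 libraries. The lowest level per length was that of CHAC1 in HCC-LM3 cells (3.31 FPKM with sh-WDR4-2 and 6.18 FPKM with sh-NC), whereas in Huh-7 cells NUPR1 (4.32 and 5.33 FPKM) and CHAC1 (5.26 and 5.01 FPKM) were the lowest and changed places between the libraries. In CPM normalised by TMM, which is the scale used from here on, ATF4 had 422 CPM with sh-WDR4-2 and 442 CPM with sh-NC in HCC-LM3 cells. Its Huh-7 values were 348 and 372 CPM. The log2 fold change, taken on the log2(CPM + 0.5) scale throughout, was −0.07 in HCC-LM3 cells (counting interval −0.10 to −0.03) and −0.10 in Huh-7 cells (−0.13 to −0.06). ATF4 mRNA was thus slightly lower in the sh-WDR4-2 library of each line, but 63.7% of all HCC-LM3 genes and 36.6% of all Huh-7 genes lay at least as far from 0. Counting intervals were computed exactly from the share of a gene's reads in 1 of the 2 libraries. They cover counting error only, because 1 library per group leaves the spread between libraries unknown. In such bulk RNA, fewer cells of a kind and less RNA per cell cannot be told apart.

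**Figure D1:**
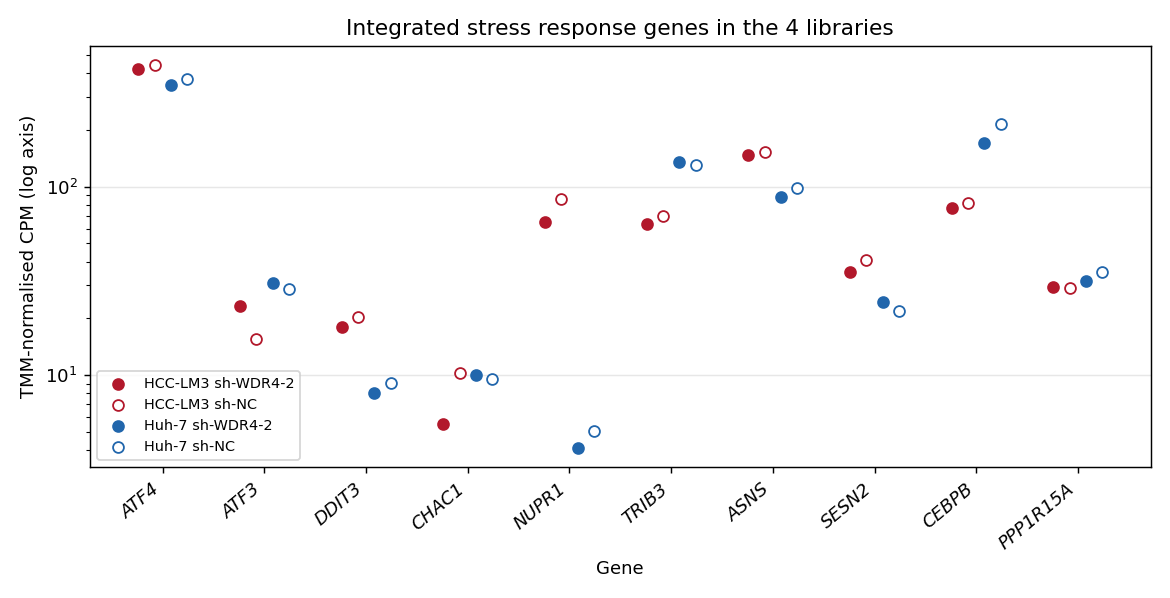
TMM-normalised CPM (log axis) of the 10 genes, 1 point per library, with filled points for sh-WDR4-2 and open points for sh-NC. ATF4 lies between 348 and 442 CPM in all libraries, and NUPR1 is 4.10 and 5.05 CPM in Huh-7 cells.

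CHAC1, which degrades glutathione and is a target of the ATF4 branch, had the largest fold change of the 10 genes. CHAC1 (chromosome 15, 40952962 to 40956519) had 176 counts, or 5.51 CPM, in HCC-LM3 cells of the library labelled sh-WDR4-2 and 447 counts, or 10.3 CPM, in those with sh-NC. In Huh-7 cells CHAC1 had 10.1 CPM with sh-WDR4-2 and 9.55 CPM with sh-NC. The HCC-LM3 sh-WDR4-2 library was therefore the low one, and the other 3 libraries lay close together. The log2 fold change of CHAC1 was −0.84 in HCC-LM3 cells (counting interval −1.16 to −0.64) and 0.07 in Huh-7 cells (−0.15 to 0.29). Ordered from the lowest fold change in HCC-LM3 cells, CHAC1 ranked 3 among the 10909 genes whose mean reached 5 CPM.

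ATF3, a bZIP factor induced by ATF4 and by several other stress signals, went the other way. ATF3 (chromosome 1, 212565334 to 212620777) had 23.3 CPM with sh-WDR4-2 and 15.6 CPM with sh-NC in HCC-LM3 cells, which gave a log2 fold change of 0.57 (0.43 to 0.74). In Huh-7 cells ATF3 had 30.9 and 28.5 CPM, with a log2 fold change of 0.12 (−0.01 to 0.24). The sh-NC library of HCC-LM3 cells was the lowest, and both HCC-LM3 libraries lay below both Huh-7 libraries. ATF3 ranked 88 from the highest among the 10909 ranked genes of HCC-LM3 cells, and it was the only one of the 10 genes that was higher with sh-WDR4-2 in both lines, where 24.1% of 11537 genes measured in both lines were.

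NUPR1 (chromosome 16, 28532708 to 28539174), a small chromatin-associated stress protein, had 65.1 CPM in HCC-LM3 sh-WDR4-2 and 85.6 CPM in HCC-LM3 sh-NC. In Huh-7 cells it had 4.10 CPM (140 counts) and 5.05 CPM (185 counts). The sh-WDR4-2 library was the lower one in each line, with log2 fold changes of −0.39 (counting interval −0.47 to −0.32) and, in Huh-7 cells, −0.27 (−0.63 to 0.02). CEBPB (chromosome 20, 50190734 to 50192689), a bZIP partner of ATF4, had 77.2 and 82.1 CPM in HCC-LM3 sh-WDR4-2 and sh-NC cells, a log2 fold change of −0.09 (−0.16 to −0.02). In Huh-7 cells CEBPB had 171 CPM with sh-WDR4-2 and 214 CPM with sh-NC, and its log2 fold change of −0.33 (−0.38 to −0.28) was the largest of the 10 genes in that line. At this level 4.80% of all genes in Huh-7 cells lay at least as far from 0.

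DDIT3 (chromosome 12, 57516588 to 57521737) encodes CHOP, the bZIP factor of the late and pro-apoptotic phase of the response. It had 17.9 CPM with sh-WDR4-2 and 20.5 CPM with sh-NC in HCC-LM3 cells, and in Huh-7 cells 8.09 and 9.09 CPM. The log2 fold changes of DDIT3 were −0.18 (counting interval −0.34 to −0.04) in HCC-LM3 cells and, for Huh-7 cells, −0.16 (−0.40 to 0.07). ASNS (chromosome 7, 97852118 to 97872542), which makes asparagine and is a classical target of the composite element, had 148 CPM with sh-WDR4-2 and 154 CPM with sh-NC in HCC-LM3 cells, and 88.4 and 98.5 CPM in Huh-7 cells. Its log2 fold changes were −0.06 (−0.11 to −0.00) and −0.16 (−0.23 to −0.09). DDIT3 and ASNS were thus slightly lower with sh-WDR4-2 in each line, and lay within the central 95% of all genes.

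TRIB3, SESN2 and PPP1R15A had fold changes of unlike sign in the cell lines. TRIB3 (chromosome 20, 362835 to 397559), a pseudokinase that restrains ATF4 and AKT, had 63.7 and 69.7 CPM in HCC-LM3 sh-WDR4-2 and sh-NC cells, and 135 and 131 CPM in the Huh-7 libraries. Its log2 fold changes were −0.13 (counting interval −0.21 to −0.05) in HCC-LM3 cells and, for Huh-7 cells, 0.05 (−0.01 to 0.11). SESN2 (chromosome 1, 28259527 to 28282491), a leucine sensor that inhibits mTORC1, had 35.4 CPM with sh-WDR4-2 and 40.6 CPM with sh-NC in HCC-LM3 cells, and 24.3 and 21.8 CPM in Huh-7 cells. The log2 fold change of SESN2 was −0.20 (−0.31 to −0.09) in HCC-LM3 cells and, for Huh-7 cells, 0.16 (0.02 to 0.30). PPP1R15A (chromosome 19, 48872392 to 48876057) encodes GADD34, the inducible subunit that directs protein phosphatase 1 to eIF2 and closes the feedback loop. It had 29.3 and 28.99 CPM in HCC-LM3 sh-WDR4-2 and sh-NC cells, and 31.7 and 35.4 CPM in Huh-7 cells, with log2 fold changes of 0.01 (−0.11 to 0.14) and −0.16 (−0.28 to −0.04).

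**Figure D2:**
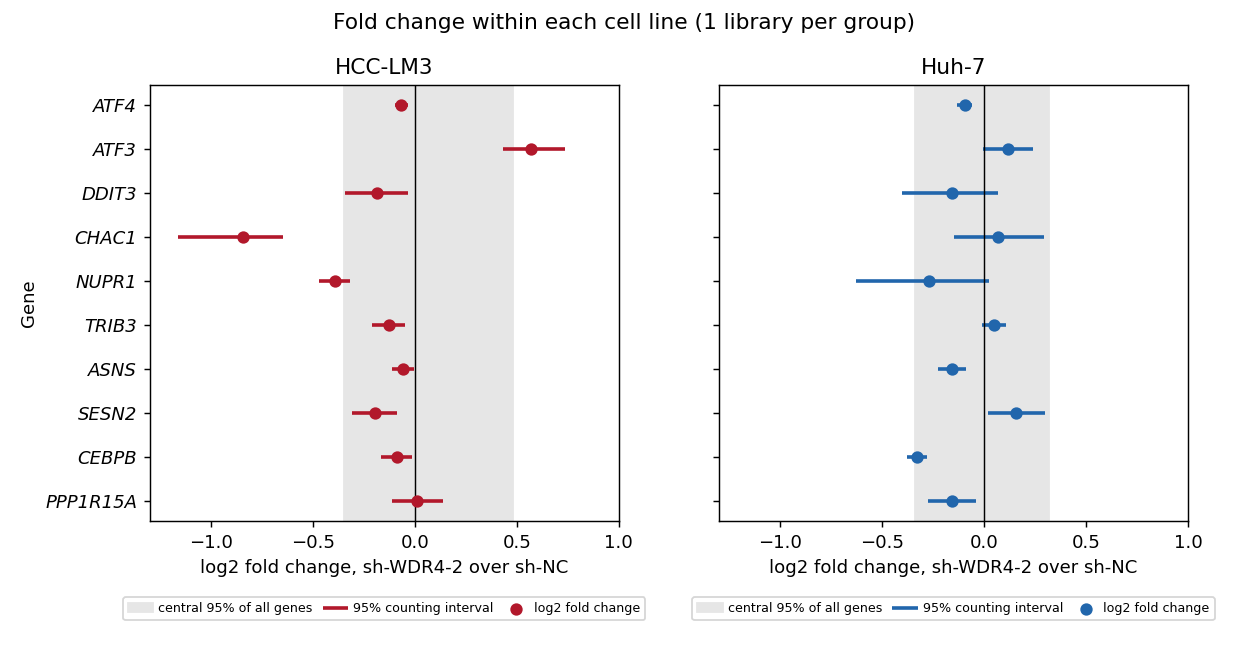
Log2 fold change of sh-WDR4-2 over sh-NC (x axis) of each gene (y axis) in HCC-LM3 cells on the left and Huh-7 cells on the right, with 95% counting intervals as bars and the central 95% of all genes in grey. CHAC1 at −0.84, NUPR1 at −0.39 and ATF3 at 0.57 lie outside the grey range in HCC-LM3 cells, and none of the 10 genes does in Huh-7 cells.

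None of the 10 genes passed the 2-fold threshold that the study uses in either cell line. Past this threshold were 0.221% of 12683 measured genes upward and 0.0394% downward in HCC-LM3 cells, and 0.0668% upward and 0.0418% downward of 11971 genes in Huh-7 cells. At 1.5-fold, CHAC1 alone passed, as lower in HCC-LM3 cells, where 0.465% of all genes did. In HCC-LM3 cells 3 of the 10 genes lay outside the central 95% of all genes, which ran from −0.35 to 0.48 and by construction left out 5.01%. In Huh-7 cells, 0 of the 10 lay outside a range of −0.34 to 0.32, which left out 5.0%.

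In HCC-LM3 cells 8 of the 10 genes were below 0, compared with 51.1% of all genes, and the median of the 10 was −0.11. In Huh-7 cells 6 of the 10 were below 0, compared with 51.0% of all genes, and the median was −0.13. The median of all genes was 0.00 in each line. ATF4, DDIT3, NUPR1, ASNS and CEBPB, 5 of the 10, were lower in both lines, where 27.9% of the genes measured in both were. CHAC1, TRIB3, SESN2 and PPP1R15A had opposite signs, as had 48.0% of those genes. Because the genes were picked with these values known, the counts describe the group and are no evidence of a direction.

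Most of the 10 genes also differed in level between the cell lines. The genes were chosen with earlier results of these data known, so this comparison is not independent of their choice. edgeR's quasi-likelihood test with the hairpin as a term, on 2 libraries per line, found 5 of the 10 genes higher and 4 lower in HCC-LM3 than in Huh-7 cells at a Benjamini-Hochberg adjusted p under 0.05. Over all 12693 genes the same test called 38.9% higher and 38.9% lower, so 77.8% of genes differed and a share of 9 in 10 is near this background. The 2 libraries of a line carry different hairpins and nothing states that they came from separate cultures beyond that. These p-values therefore do not measure the spread between replicate cultures. With 1 residual degree of freedom, they rest largely on a spread that edgeR borrows from all 12693 genes.

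NUPR1 had the largest difference, a log2 difference of 4.04 (SE 0.10, adjusted p = 1.1e-16 from edgeR), with 65.1 and 85.6 CPM in HCC-LM3 cells and 4.10 and 5.05 CPM in Huh-7 cells. Each SE was derived from the log2 difference and the F statistic of edgeR's test. DDIT3 was higher in HCC-LM3 cells by 1.16 (SE 0.12, adjusted p = 1.4e-07 from edgeR). SESN2, ASNS and ATF4 were higher by 0.72, 0.69 and 0.26 on the log2 scale, with SE of 0.10, 0.06 and 0.05 (edgeR adjusted p = 3.9e-06, 4.1e-09 and 4.4e-05). For these 5 genes both HCC-LM3 libraries lay above both Huh-7 libraries.

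CEBPB was lower in HCC-LM3 cells with a log2 difference of −1.27 (SE 0.06, adjusted p = 3.3e-11 from edgeR) and TRIB3 with −0.995 (SE 0.06, adjusted p = 1.5e-10 from edgeR). ATF3 had −0.64 (SE 0.11, adjusted p = 0.000119 from edgeR) and PPP1R15A −0.20 (SE 0.09, adjusted p = 0.0379 from edgeR). The fits with 1 library left out kept only 1 library in an arm and had no term for the hairpin, so their calls cannot be compared with those above. Only their log2 differences are given. Without either HCC-LM3 library the log2 difference of CEBPB stayed between −1.32 and −1.22. That of ATF3 was −0.56 without Huh-7 sh-WDR4-2 and −0.68 without Huh-7 sh-NC. It was −0.93 without HCC-LM3 sh-WDR4-2 and −0.35 without HCC-LM3 sh-NC. That of PPP1R15A was −0.12 without Huh-7 sh-NC and −0.28 without Huh-7 sh-WDR4-2. With DESeq2 on all libraries PPP1R15A was not called (adjusted p = 0.228). CHAC1 was not called, with a log2 difference of −0.35 (SE 0.22, adjusted p = 0.172 from edgeR). It was 0.08 without the HCC-LM3 sh-WDR4-2 library and −0.83 without HCC-LM3 sh-NC, so a single library set its direction.

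**Figure D3:**
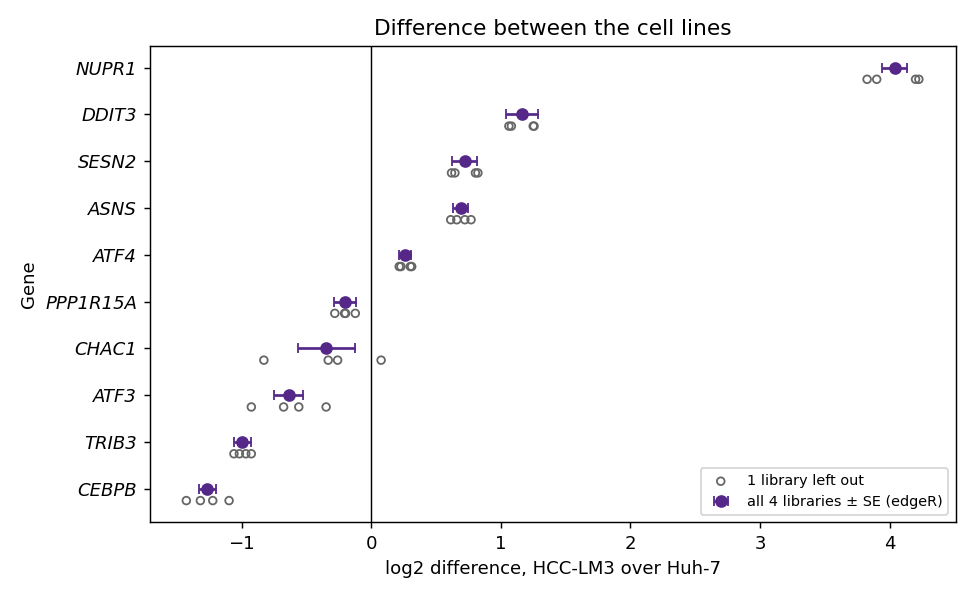
Log2 difference of HCC-LM3 over Huh-7 cells (x axis) for each gene (y axis). Filled points are the edgeR estimate from all 4 libraries with its SE, derived from the F statistic. Open points are estimates with 1 library left out and no hairpin term. NUPR1 stands at 4.04 and CEBPB at −1.27, and the open points of CHAC1 run from −0.83 to 0.08.

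Upstream of ATF4, the kinases of eIF2 differed little. EIF2AK3 encodes PERK, the kinase that senses ER stress, and had 49.4 CPM with sh-WDR4-2 and 56.1 CPM with sh-NC in HCC-LM3 cells, a log2 fold change of −0.18 (interval −0.28 to −0.09), and −0.04 in Huh-7 cells. EIF2AK4 encodes GCN2, the sensor of uncharged tRNA, and had −0.08 and −0.02. EIF2AK1, the haem-regulated kinase HRI that also relays mitochondrial stress, had 0.00 and 0.07, and EIF2AK2, the RNA-activated kinase PKR, had 0.05 and −0.00. Of 8 genes for eIF2 and its exchange factor eIF2B, 5 were below 0 in HCC-LM3 cells and 3 were in Huh-7 cells, beside 51.1% and 51.0% of all genes. EIF2S2, the beta subunit, had −0.09 and −0.07, EIF2B1 had 0.09 and −0.03, and EIF2B5 had −0.07 and −0.05. PPP1R15B, the constitutive partner of the eIF2 phosphatase, had −0.12 and 0.00, whereas the catalytic subunits PPP1CB and PPP1CC had 0.13 and 0.14 in HCC-LM3 cells and 0.04 and 0.10 in Huh-7 cells.

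Among bZIP partners and related factors, 7 of 12 were below 0 in each line, beside 51.1% of all genes in HCC-LM3 cells and 51.0% in Huh-7 cells. The medians were −0.02 for HCC-LM3 and −0.03 for Huh-7 cells. FOS, an immediate early factor, had 159 CPM in HCC-LM3 sh-WDR4-2 and 111 CPM in sh-NC, a log2 fold change of 0.52 (interval 0.47 to 0.58), and −0.06 in Huh-7 cells. JUN had 0.17 in HCC-LM3 cells and, for Huh-7 cells, 0.30 (0.22 to 0.39). JDP2, a bZIP repressor, had −0.37 (−0.55 to −0.21) and 0.10.

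A chosen list of 12 cytosolic aminoacyl-tRNA synthetases, which charge tRNAs, was examined, and it does not hold all such enzymes. Of its 11 measured genes, 10 were below 0 in HCC-LM3 cells, with a median log2 fold change of −0.09. In Huh-7 cells 7 were below 0, with a median of −0.02. Beside this, 51.1% and 51.0% of all genes were below 0. CARS1, the cysteinyl-tRNA synthetase, had 55.3 CPM with sh-WDR4-2 and 64.2 CPM with sh-NC in HCC-LM3 cells, a log2 fold change of −0.21 (interval −0.30 to −0.13). WARS1 had −0.18 and NARS1 −0.15 in HCC-LM3 cells, and 0.02 and 0.03 in Huh-7 cells. LARS1, at 0.03, was the exception in HCC-LM3 cells. EPRS1 was not analysed here.

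Of the 10 listed amino acid transporters, 8 were below 0 in HCC-LM3 cells (median −0.07). In Huh-7 cells 4 of 9 measured were below 0 (median 0.00). Of all genes 51.1% and 51.0% were below 0 in these lines. SLC7A11, the cystine transporter, had 102 CPM in HCC-LM3 sh-WDR4-2 and 133 CPM in HCC-LM3 sh-NC, a log2 fold change of −0.39 (interval −0.45 to −0.32), and −0.00 in Huh-7 cells. SLC1A4 and SLC1A5, transporters of small neutral amino acids and of glutamine, had −0.15 and −0.12 in HCC-LM3 cells. The enzymes of serine, proline and one-carbon metabolism were split, with 6 of 12 below 0 in HCC-LM3 cells and 8 of 12 for Huh-7, beside the same shares of all genes. PSPH and PYCR1 had −0.26 and −0.25 in HCC-LM3 cells, whereas the mitochondrial folate enzyme ALDH1L2 had 0.32 (0.19 to 0.46).

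The core TGATGNAA was present in the promoter windows of 7 of 9 listed aminoacyl-tRNA synthetase genes and 4 of 8 listed transporter genes, against 3.62% of all windows. Over the 10 genes and the pathway lists together, 19 of the 20 genes with this core were below 0 in HCC-LM3 cells, and ATF3 was the exception. Their median log2 fold change was −0.11, compared with −0.03 for the 67 listed genes without it, of which 58.2% were below 0. The 7 synthetase and 4 transporter genes are among the 20, and their lists were mostly below 0, so this count in part restates those lists. HERPUD1 (−0.01), CEBPG (−0.01) and GOT1 (−0.06) had counting intervals that held 0. Among all 259 measured genes with the core, 49.4% were below 0 in HCC-LM3 cells, and their median was 0.00. In Huh-7 cells 36.8% of the 19 listed genes with the core were below 0, with a median of 0.00. These counts describe 2 libraries per line and carry no test, and the 10 genes and the lists were all chosen with earlier results of these data known.

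Other targets of ATF4 or CHOP were spread widely in HCC-LM3 cells. VLDLR, a lipoprotein receptor, had 36.5 CPM with sh-WDR4-2 and 21.8 CPM with sh-NC in HCC-LM3 cells, a log2 fold change of 0.73 (interval 0.62 to 0.87), and passed 1.5-fold, as did 1.37% of all genes upward. ERO1A, an oxidase of the ER, had 0.50 (0.45 to 0.55) and STC2, a secreted glycoprotein, 0.47 (0.40 to 0.54). On the other side, BBC3, which encodes the pro-apoptotic protein PUMA, had 6.67 CPM with sh-WDR4-2 and 9.71 CPM with sh-NC, a log2 fold change of −0.51 (−0.79 to −0.30), and SQSTM1, the autophagy receptor p62, had −0.44 (−0.46 to −0.42). In Huh-7 cells VLDLR, ERO1A, STC2 and SQSTM1 lay between −0.06 and 0.02, and BBC3 had −0.19.

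VLDLR, ERO1A and STC2 are also known to respond to low oxygen. A list of 15 hypoxia genes was higher in HCC-LM3 sh-WDR4-2 than in HCC-LM3 sh-NC. All 15 were higher, where 51.1% of all genes were below 0, and 6 passed 2-fold, as did 0.221% of all genes upward. The list was chosen with earlier results of these data known, so these counts only describe it. Its summed level was 5732 CPM with sh-WDR4-2 and 3435 CPM with sh-NC, with a median log2 fold change of 0.73. The 6 were CA9 (1.78), NDRG1 (1.41), PFKFB4 (1.38), EGLN3 (1.23), BNIP3 (1.20) and ENO2 (1.19). In Huh-7 cells 11 of 15 were higher, where 51.0% of all genes were below 0. There 0 of the 15 passed 2-fold, where 0.0668% of all genes did upward, and the median was 0.09. The part of this difference, and of the lane that differs between the 2 HCC-LM3 libraries, in the fold changes of the stress genes was not tested.

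Genes of the ER unfolded protein response had medians of −0.05 for HCC-LM3 and −0.03 for Huh-7 cells. Of these 15 genes 10 and 9 were below 0, beside 51.1% and 51.0% of all genes. SDF2L1, an ER chaperone component, had −0.35 (counting interval −0.48 to −0.23) in HCC-LM3 cells, XBP1, the factor spliced by IRE1, had −0.25, and EDEM1, which acts in ER-associated degradation, 0.18. The ER stress element, searched on both strands, was found in 5 of these 15 promoter windows (HSPA5, HSP90B1, CRELD2, XBP1 and CALR) and in 0.0769% of all windows. In the mitochondrial stress relay the fold changes were small, with OMA1, the protease that starts it, at 0.14 and −0.08, DELE1, the messenger to HRI, at −0.04 and −0.11, and HSPE1 at 0.05 and 0.16, each with the HCC-LM3 value before the Huh-7 value.

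**Figure D4:**
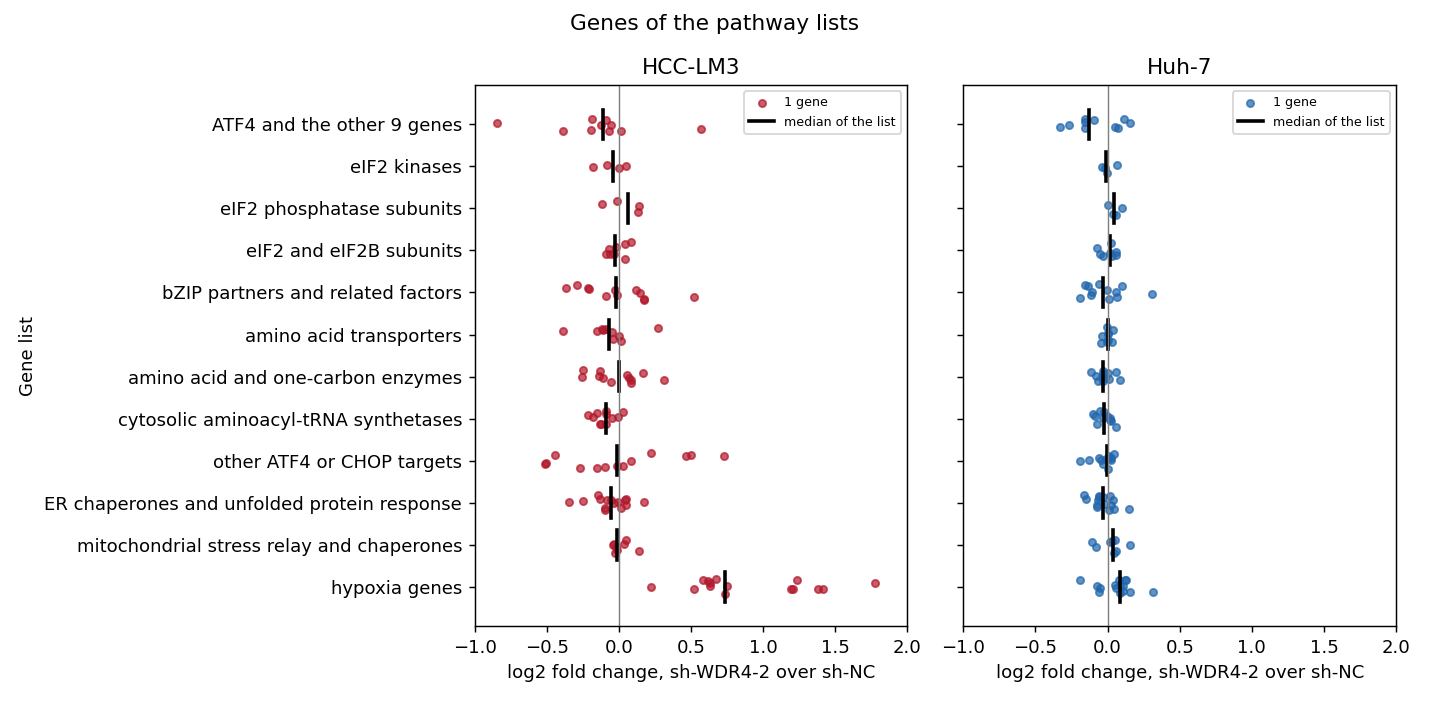
Log2 fold change of sh-WDR4-2 over sh-NC (x axis), 1 point per measured gene and a black line at the median of each list (y axis), in HCC-LM3 cells on the left and Huh-7 cells on the right. The synthetase list has a median of −0.09 and the hypoxia list 0.73 in HCC-LM3 cells, and the lists lie between −0.13 and 0.09 in Huh-7 cells.

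Of the 96 pathway genes tested for an effect shared by both lines, 0 passed an adjusted p under 0.05 in edgeR with a term for the cell line, and 0 passed with DESeq2. Over all 12693 genes this edgeR test called 0.0158% upward and 0.00% downward. At an unadjusted p under 0.05, 11 of the 96 passed with edgeR, 3 higher and 8 lower, where 5.11% of all genes did. With DESeq2 3 of the 96 passed, where 1.15% of all genes did. The lists were chosen with earlier results of these data known, so these counts describe them and are no evidence of an excess or a direction. The edgeR test has 1 residual degree of freedom. Its own spread is that of the fold changes between the lines, which edgeR draws toward a spread shared over all genes.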

How the data were processed

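The authors deposited 1 table of counts and FPKM per gene symbol for the 4 libraries. The deposited counts are raw whole numbers, and the deposited FPKM were scaled by the authors to a gene length and the library total. How reads were counted, and on which annotation, is not given in the sources used here. Bowtie 0.12.2 and builds mm8 and mm9, which are of mouse, stand in the submitters' processing notes without a role. Libraries were grouped by their source names.

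Counts were normalised by TMM (edgeR 4.0.16, R 4.3.3; DESeq2 1.42.0 as alternative). Genes needed a mean of 1 CPM over the libraries compared, and a pseudocount of 0.5 CPM was added before log2. With 1 library per group no p-value was made within a line. Both edgeR fits used all 4 libraries and were tested on simulated data. The block is the cell line that both libraries of a pair share. A count of 0 was read with a floor of 3 counts.

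Genes were named by a rule: the 10 genes, the eIF2 kinases, per list the genes past 2-fold and up to 3 of at least 5 CPM by size of change, WDR4, and the 5 genes nearest to CHAC1. STC2, SQSTM1 and LARS1 were named after their values were seen. The 10 genes and the lists were chosen with earlier results of these data known. Synthetases (11 of 12) and DELE1 were matched through RefSeq synonyms. The order check compared the order of the table with the places its symbols would take in a hash table. It left 231 entries out of order, and 18014 after a random shuffle. Alternatives were other size factors, pseudocounts, filters, thresholds, fits and left-out libraries. Values were computed with scipy 1.17.1, numpy 2.4.6 and pandas 2.3.3 under Python 3.11.15. Intervals cover counting error only, and they treat reads as independent, although PCR copies are not independent molecules.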

Additional observations from a re-analysis of the deposited data

Results flagged for a closer look

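SESN2 was singled out because its fold change had opposite signs in the cell lines with each counting interval on its own side of 0. It had a log2 fold change of −0.20 in HCC-LM3 cells (1131 counts with sh-WDR4-2 and 1766 with sh-NC) and 0.16 in Huh-7 cells (831 and 799 counts). The difference between the lines was not tested, since each fold change rests on 1 library per group. Such opposite intervals were found for 1 of the 10 genes, for 5 of the 95 pathway genes measured in both lines (5.26%) and for 694 of all 11537 genes (6.02%).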

How the results depend on the processing

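None of the 100 alternative fold changes of the 10 genes had another sign or moved beyond its counting interval, and the largest shift was 0.0571 on the log2 scale. None of 110 alternative list medians moved by more than a typical counting interval. In HCC-LM3 cells 33 of all genes passed 2-fold. This became 59 with a pseudocount of 0.1, 69 with the ratio of the deposited FPKM, 50 without a filter, 12 at a mean of 10 CPM and 233 at 1.5-fold, where the count of the 10 genes became 1. In Huh-7 cells 13 became 26, 35, 26, 1 and 112 under the same settings, and 7 with a pseudocount of 1. In the shared test the count of 2 called genes was 0 in a fit with no replicate block for the line and 11 without a filter, and the cause was not tested. With the hairpin left out as a block, 9 of the 10 genes still differed between the lines. The fits with 1 library left out also had no term for the hairpin and kept only 1 library in an arm. Their calls are therefore not set against those of the main fit. In them the log2 difference of CHAC1 ran from −0.83 to 0.0753, the value of opposite sign being that without HCC-LM3 sh-WDR4-2. In these fits an arm of 1 library is assumed to vary like the other. With 140 and 185 counts of NUPR1 in Huh-7 cells, and 176 and 447 of CHAC1 in HCC-LM3 cells, counting error alone left intervals of −0.63 to 0.02 and −1.16 to −0.64.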

Other observations

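Outside the response, the genes whose pair of fold changes lay nearest to that of CHAC1, by Euclidean distance over the 2 cell lines among 10099 genes of at least 5 CPM in each line, were EIF3C, HAGHL, IFI6, OSGIN1 and GCNT3. EIF3C, which encodes part of the initiation factor eIF3, had 1162 counts in HCC-LM3 sh-WDR4-2 and 3165 in HCC-LM3 sh-NC, a log2 fold change of −0.99, and 0.05 in Huh-7 cells. A near-identical copy of EIF3C could share its reads, which leaves its value uncertain. IFI6, an interferon-stimulated gene, had −0.81 and −0.14, and OSGIN1, a gene of the oxidative stress response, −0.80 and −0.14, each with the HCC-LM3 value first. HAGHL had −0.65 and 0.02, and GCNT3, a glycosyltransferase, −0.57 and 0.06. The distances from CHAC1 ran from 0.149 for EIF3C to 0.276 for GCNT3, over 2 fold changes only.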
